A study of Drosophila melanogaster with 12 samples.

Results

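Atg8 conjugation and lysosome genes were followed in stage 14 follicles, the mature egg chambers of the Drosophila ovary, through 7 genes: Atg3, Atg4a, Atg5, Atg12, Mitf, Lamp1 and cathD. They were taken by gene name from the linear RNA table, which lists 5954 genes, and every listed transcript of a gene was summed per day. The 7 genes have 9 of the 10162 listed transcripts. The follicles came from Oregon R, a common wild-type stock, labelled stage 14 day 12 and stage 14 day 2, with no mutation or treatment named for either. Per the labels, 3 linear RNA libraries of total RNA from ovaries were made for each day, each called a biological replicate, and the series title calls the follicles aging. The sources used here give neither the age of the females nor the event from which the days were counted.

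In macroautophagy, a double membrane closes around cytoplasm and fuses with the lysosome, where the content is digested. The ubiquitin-like protein Atg8 is trimmed by the protease Atg4, activated by Atg7, and joined by Atg3 to a lipid of the growing membrane, while a conjugate of Atg12 and Atg5, bound to Atg16, directs that last step. Mitf, the fly counterpart of mammalian TFEB, is a transcription factor of lysosomal and vacuolar ATPase genes; Lamp1 is a glycoprotein of the lysosomal membrane and cathD is cathepsin D, an aspartic protease of the lysosome. In the fly ovary, autophagy is known from dying egg chambers and from the removal of nurse cells late in oogenesis.

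All 7 genes were present on both days, and their differences between days were small. The summed values at day 12 were 1.15 times those at day 2 for Mitf, 1.13 times for Atg5 and 1.12 times for Lamp1, 1.01 times for Atg12, 0.953 times for Atg4a, 0.916 times for Atg3 and 0.907 times for cathD. None of the 9 transcripts passed the call threshold, an adjusted p under 0.05 by the authors' deposited table, where 0.177% of all listed transcripts did. None passed at an adjusted p under 0.1 either, against 1.19% of all transcripts by the authors' deposited table. Before adjustment, 5 of the 9 transcripts, from 4 of the 7 genes, had p under 0.05, beside 16.0% of all transcripts by the authors' deposited table. Each value is a mean that the authors took over 3 libraries, in their abundance unit, so no SD and no left-out library can be given. The p-values are those of the authors' test, which no source used here names. Where 2 means differ, whether the libraries of the days overlap is not known.

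The table lists 634242 abundance units in sum at day 12 and 628567 at day 2, and the read depth of the libraries is unknown. The 6 germline markers osk, nos, bcd, CycB, vas and orb were all listed and summed to 3820 at day 12 and 3381 at day 2. They did not all go 1 way: osk, nos, bcd and CycB had the higher value at day 12, and vas and orb the lower. CycB alone had 1900 at day 12 and 1702 at day 2. Of 5 mature follicle cell markers Ilp8 alone was listed, with 80.1 at day 12 and 50.1 at day 2. Of 10 markers of yolk, chorion and earlier follicle cells, 4 were listed, namely Yp1, Yp2, Yp3 and Cp15, and they summed to 23.3 at day 12 and 275 at day 2. Of 4 hemocyte markers crq alone was listed, with 132 at day 12 and 118 at day 2, while none of 6 muscle sheath or 3 fat body markers was. These libraries hold all cells of the follicle, so fewer cells of a type and less RNA per cell cannot be told apart. The part of the difference in yolk and chorion RNA in the values of the 7 genes was not tested.

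The genes formed a high and a low set by level. Lamp1 ranked 192 of all genes at day 12 and 216 at day 2, by summed abundance, and Mitf ranked 313 at day 12 and 358 at day 2. cathD ranked 373 at day 12 and 330 at day 2, so Mitf stood above cathD at day 12 and below it at day 2. The conjugation genes were lower: Atg5 ranked 2000 at day 12 and 2270 at day 2, and Atg12, Atg4a and Atg3 followed in that order on both days, from rank 3201 to 3653 at day 12 and from 3225 to 3464 at day 2. With no spread over libraries, it cannot be said which neighbours in this order differ. Abundances of different genes are set side by side on the assumption that the unit is per length, as StringTie, named in the submitters' processing notes, reports it.

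**Figure D1:**
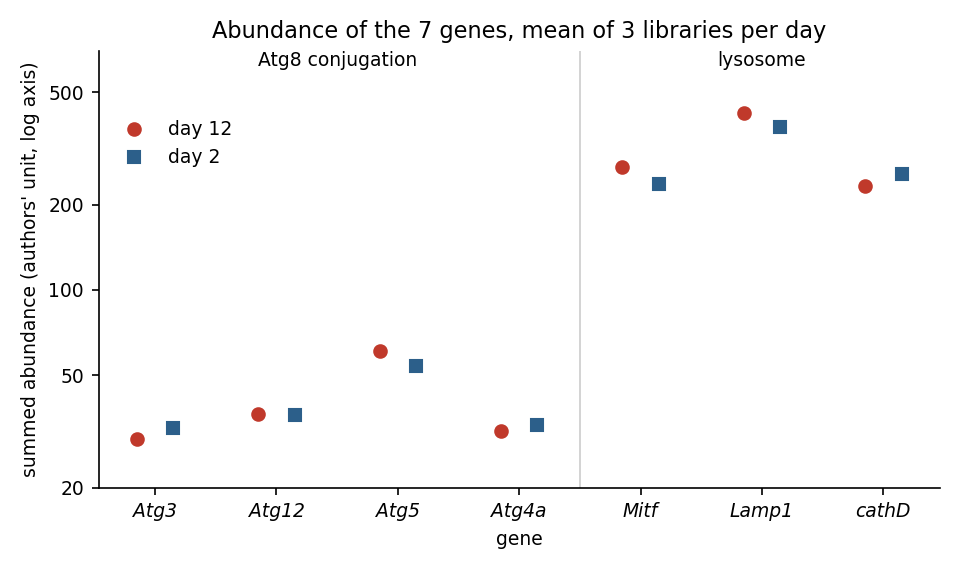
Summed abundance of each gene (log axis, authors' unit) at day 12 (red circles) and day 2 (blue squares), each point the authors' mean of 3 libraries. The 4 conjugation genes lie between 29.8 and 60.8 and the 3 lysosome genes between 233 and 421. Day 12 is above day 2 for Mitf, Lamp1 and Atg5, and barely so for Atg12, at 36.4 and 36.2.

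Among the conjugation genes, Atg3 and Atg4a act on Atg8 itself. Atg3, the E2-like enzyme that hands Atg8 to its lipid, had an abundance of 29.8 at day 12 and 32.6 at day 2, a log2 ratio of -0.13 with p = 0.129 before and 0.460 after adjustment by the authors' deposited table. Atg4a, a protease that exposes the end of Atg8 to be joined and also frees Atg8 from the lipid, had 31.8 at day 12 and 33.4 at day 2. Its log2 ratio of -0.07 carried p = 0.0423 before and 0.289 after adjustment by the authors' deposited table. Both genes thus had the lower mean at day 12, by small amounts, and the ratio of Atg3 to Atg4a was 0.937 at day 12 and 0.974 at day 2.

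Atg12 and Atg5 form the conjugate that directs lipid attachment. Atg12, the ubiquitin-like partner, had 36.4 at day 12 and 36.2 at day 2, a log2 ratio of 0.01, the smallest difference of the 7 genes. By the authors' deposited table, p was nevertheless 0.0879 before and 0.396 after adjustment. Of the 480 transcripts with a log2 ratio within 0.02 of 0, 58 had p under 0.1 before adjustment by the authors' deposited table, or 12.1%, against 23.9% of all transcripts. A low p in that table can stand beside nearly equal means. Atg5, to which Atg12 is joined, had 60.8 at day 12 and 53.7 at day 2, a log2 ratio of 0.18 with p = 0.0511 before and 0.314 after adjustment by the authors' deposited table. The ratio of Atg12 to Atg5 was 0.599 at day 12 and 0.674 at day 2. Such a ratio within a day does not depend on how the days were scaled to each other.

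Atg8a, the Atg8 protein on which these enzymes act, had 181 at day 12 and 184 at day 2, a log2 ratio of -0.03 with an adjusted p = 0.685 by the authors' deposited table. It was more abundant than each of the 4 conjugation genes, with Atg3 at 0.165 of its level at day 12 and 0.177 at day 2. Atg7, the E1-like enzyme that activates Atg8 and Atg12, had 25.4 at day 12 and 23.8 at day 2, and Atg16, the partner of the Atg12 and Atg5 conjugate, had 28.6 at day 12 and 31.0 at day 2. Their log2 ratios were 0.10 and -0.12. The ratio of Atg16 to Atg5 was 0.470 at day 12 and 0.577 at day 2. Of the 10 genes in the list of Atg8 and Atg12 conjugation, 7 were listed, and Atg4b, Atg8b and Atg10 were not analysed here. Of the 7, 3 had the higher sum at day 12 and 4 the lower, with a median log2 ratio of -0.03, where the median of all genes was 0.04 and 58.5% of all genes had the higher sum at day 12.

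Mitf had the largest log2 ratio of the 7 genes, 0.20, with a summed abundance of 272 at day 12 and 237 at day 2. Its 2 listed transcripts both had the higher mean at day 12. Mitf-RB, with 86.4% of the gene's sum at day 12 and 85.7% at day 2, had 235 at day 12 and 203 at day 2, with p = 0.0080 before and 0.164 after adjustment by the authors' deposited table. The other transcript, assembled by the authors, had 37.1 at day 12 and 33.9 at day 2, with p = 0.0055 before and 0.151 after adjustment by the authors' deposited table, the lowest of the 9 transcripts. The shares of the 2 transcripts in the gene thus hardly differed between days. Of all genes with a ratio, 30.6% had a larger log2 ratio in size than Mitf.

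Lamp1, listed with a single transcript, had 421 at day 12 and 375 at day 2. The log2 ratio was 0.17, with p = 0.0093 before and 0.174 after adjustment by the authors' deposited table. The ratio of Mitf to Lamp1 was 0.645 at day 12 and 0.631 at day 2. Both lie among abundant genes, and the 443 genes with a mean over 200 had a median log2 ratio of 0.08, with quartiles of -0.02 and 0.15. In that class cathD, at -0.14, lay below the lower quartile, and Mitf, at 0.20, and Lamp1, at 0.17, lay above the upper.

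cathD stood on the other side of these genes, with a summed abundance of 233 at day 12 and 257 at day 2 and a log2 ratio of -0.14. Nearly all of it was in a transcript assembled by the authors, with 232 at day 12 and 251 at day 2, which had p = 0.0513 before and 0.314 after adjustment by the authors' deposited table. The annotated transcript cathD-RA had 1.41 at day 12 and 5.60 at day 2, a log2 ratio of -1.99, with p = 0.0356 before and 0.270 after adjustment by the authors' deposited table. It made up 0.603% of the gene at day 12 and 2.18% at day 2, so the 3.99-fold lower mean of this transcript at day 12 bears little on the sum. The ratio of Lamp1 to cathD was 1.81 at day 12 and 1.46 at day 2, and that of Mitf to cathD was 1.17 at day 12 and 0.922 at day 2.

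**Figure D2:**
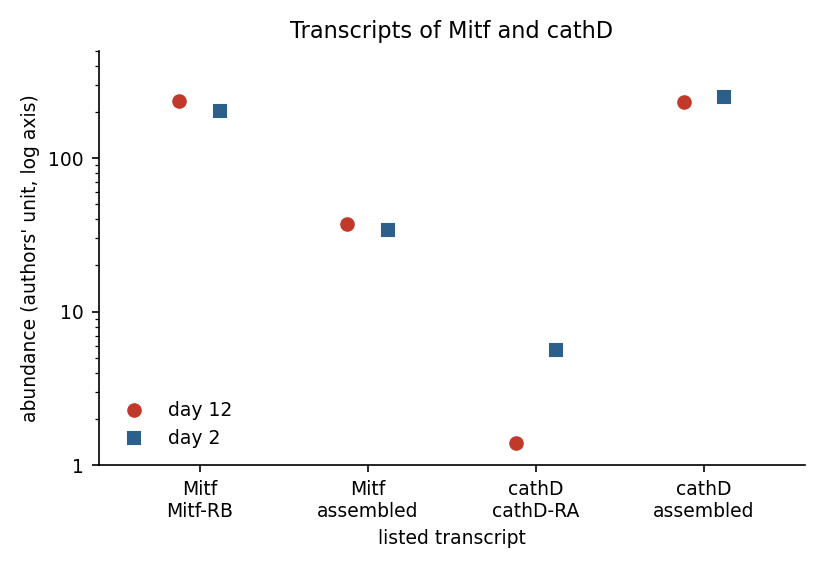
Abundance (log axis, authors' unit) of the listed transcripts of Mitf and cathD at day 12 (red circles) and day 2 (blue squares), each point the authors' mean of 3 libraries. Mitf is higher at day 12 in both transcripts; in cathD the low annotated transcript, at 1.41 at day 12 and 5.60 at day 2, differs more in ratio than the assembled one, at 232 at day 12 and 251 at day 2.

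Against all genes, the log2 ratios of the 7 were not extreme. They ran from -0.14 to 0.20, and their median was 0.01, the value of Atg12. At day 12, 4 had the higher sum and 3 the lower, beside 58.5% higher among all genes. By the most abundant transcript of each gene, 2 of the 7 had p under 0.05 before adjustment and the higher mean at day 12, Mitf and Lamp1, and 1 the lower, Atg4a. The same held for 13.5% and 9.07% of all genes by the authors' deposited table. Subtracting the median of all genes, 0.04, left Mitf at 0.16, Atg5 at 0.14 and Lamp1 at 0.12 on the log2 scale, and put Atg12 at -0.03. Among the 2778 genes with a mean between 20 and 70, the range of the conjugation genes, the median log2 ratio was 0.05 and the quartiles were -0.09 and 0.13. Atg5, at 0.18, lay above the upper quartile and Atg3, at -0.13, below the lower, with Atg4a and Atg12 between them.

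**Figure D3:**
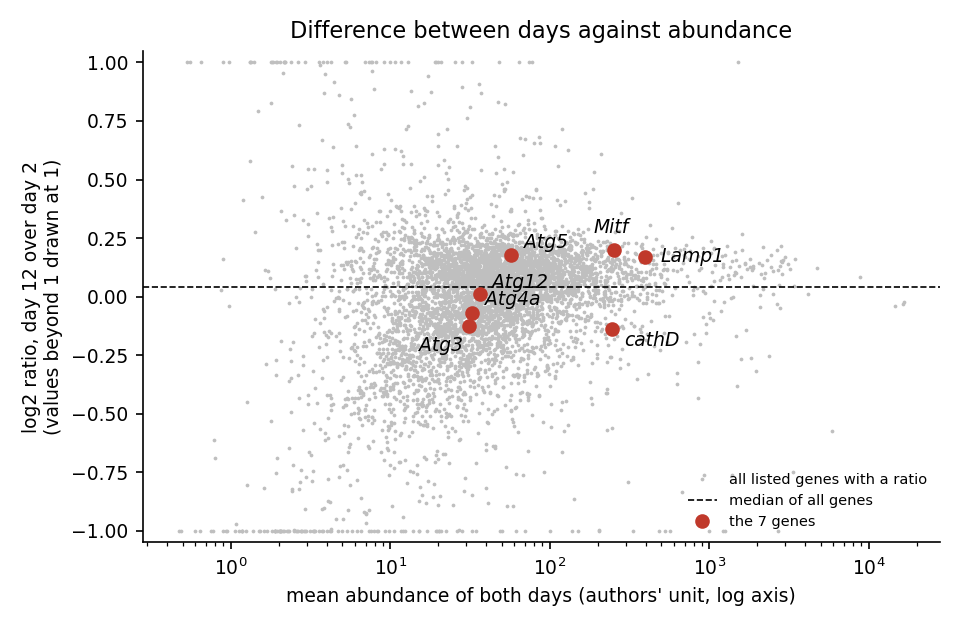
Log2 ratio of summed abundance, day 12 over day 2, against the mean abundance of both days (log axis, authors' unit) for all listed genes with a ratio (grey) and the 7 genes (red, named); ratios beyond 1 in size are drawn at 1. The 7 genes lie between -0.14 and 0.20, inside the cloud of all genes, whose median of 0.04 is the dashed line.

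The position of the genes in the genome bears on how their reads can be told apart. Coordinates are those of dm6, and the sources used here do not give the strandedness of the libraries. Atg3 lies at 3L from 18748687 to 18750483 on the plus strand. Its single annotated transcript has 4 exons. Lamp1 lies at 2L from 21573389 to 21577103 on the same strand and has 4 exons. Neither overlaps another annotated gene. Mitf lies on chromosome 4 from 1198852 to 1224467 on the plus strand, and Mitf-RB, with 9 exons and 3009 nt, is 1 of its 4 annotated transcripts. No other gene overlaps it.

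The other 4 genes share bases with a neighbour's span. Atg12, at 3L from 12136967 to 12137559 on the plus strand, shares its last 64 bp with exons of ND-SGDH of the opposite strand, a subunit of respiratory complex I, and is itself 469 nt long when spliced. ND-SGDH had 145 at day 12 and 134 at day 2, several times the abundance of Atg12. Atg4a, at 2L from 1080911 to 1085380 on the plus strand, shares 2098 exonic bp with CG4629 of the opposite strand, which was not analysed here. The listed transcript, Atg4a-RA, ends at 1083378 and holds the smaller part of these bases. Atg5, at X from 7314622 to 7323770 on the minus strand, lies within the span of CG1677 on the same strand and shares no exonic base with it. CG1677 had 60.9 at day 12 and 76.7 at day 2, a log2 ratio of -0.33, opposite in sign to that of Atg5. The long noncoding gene lncRNA:CR44357 also spans Atg5 without an exonic overlap and was not analysed here. cathD, at 2R from 7815339 to 7823569 on the minus strand, shares 148 bp with puml of the opposite strand, which had 19.4 at day 12 and 20.1 at day 2. Of its annotated transcripts only cathD-RC reaches these bases, and it is not among the listed transcripts. The listed cathD-RA does not reach them, and the span of the assembled transcript was not examined.

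Among genes of the vacuolar ATPase, the proton pump that acidifies the lysosome and whose genes Mitf is known to activate, the median log2 ratio was 0.13. Of 18 genes in the list, 15 were listed, 10 with the higher sum at day 12 and 5 with the lower, beside 58.5% higher among all genes and 73.3% among the 1083 genes with a mean over 100. Such a count is near the background. None of their 24 transcripts had an adjusted p under 0.05 in the authors' deposited table, and the lowest, 0.0890, belonged to VhaAC39-1. By the most abundant transcript, 6 had the higher mean with p under 0.05 before adjustment, and 1 the lower, beside 13.5% and 9.07% of all genes by the authors' deposited table. Of the 1083 genes with a mean over 100, 240 had the higher mean at that p and 98 the lower. Means in the list began at 12.2, so that class does not match all of its genes. VhaAC39-1, a subunit of the membrane sector, had 210 at day 12 and 188 at day 2. Of the other genes with a low unadjusted p, Vha13, the most abundant at 752 at day 12 and 668 at day 2, belongs to the sector in the cytosol, as do Vha26 and Vha36-1, with log2 ratios of 0.22 and 0.13. Vha16-1, of the proton-carrying ring, summed to 391 at day 12 and 350 at day 2, and VhaM9.7-b had a log2 ratio of 0.19. Vha100-2, a form of the large membrane subunit, was the exception, at 71.4 at day 12 and 88.6 at day 2.

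For lysosomal membrane proteins and enzymes, more genes were lower than higher at day 12. The list holds cathD, counted among the lower, and Lamp1, counted among the higher. Of 25 genes with an identifier in that list, 15 were listed, with 4 higher and 11 lower at day 12, beside 58.5% higher among all genes, and a median log2 ratio of -0.05. None of their 21 transcripts had an adjusted p under 0.05 in the authors' deposited table, and the lowest was 0.132. By the most abundant transcript, p was under 0.05 before adjustment for Lamp1, with the higher mean, and for 5 genes with the lower, beside 13.5% and 9.07% of all genes by the authors' deposited table. Of these, Hexo1 and Hexo2, hexosaminidases, had log2 ratios of -0.48 and -0.40 at low levels of 5.81 and 7.44 at day 12 and 8.10 and 9.82 at day 2. Sap-r, the precursor of saposins that help lipid breakdown, had 94.4 at day 12 and 120 at day 2. Ppt1, a thioesterase that removes palmitate from proteins, summed to 23.7 at day 12 and 31.1 at day 2. Its log2 ratio was -0.39 by sums and -1.37 by the more abundant of its 2 transcripts. The list's lowest adjusted p belonged to that transcript, so it does not stand for the whole gene. Npc2a, a sterol-binding protein, had 204 at day 12 and 209 at day 2. The most abundant was 26-29-p, a cysteine protease, at 756 at day 12 and 844 at day 2, with p = 0.0952 before adjustment by the authors' deposited table.

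For fusion of autophagosomes with lysosomes, 12 of 14 genes were listed, 9 higher and 3 lower at day 12, beside 58.5% higher among all genes, with a median log2 ratio of 0.12. None of their 18 transcripts had an adjusted p under 0.05 in the authors' deposited table, and the lowest was 0.159. Arl8, a small GTPase of lysosomes listed as Gie, had 40.4 at day 12 and 33.5 at day 2. The tethering complex HOPS was mixed: Vps11 and Vps16A had log2 ratios of 0.20 and 0.12, and dor, another subunit, had 14.8 at day 12 and 17.3 at day 2. Its subunits lt and car had log2 ratios of 0.22 and -0.25. For Arl8, Vps11, Vps16A and dor, 4 of 12 genes, p was under 0.05 before adjustment by the authors' deposited table, as for 22.5% of all genes. Rab2 and Vamp7, the most abundant, had log2 ratios of 0.12 and 0.15.

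Of 16 genes with an identifier in the list of Mitf and nutrient sensing at the lysosome, 14 were listed, 11 higher and 3 lower at day 12, beside 58.5% higher among all genes, with a median log2 ratio of 0.10. Mitf was the only gene of this list whose most abundant transcript passed p under 0.05 before adjustment by the authors' deposited table, 1 of 14 beside 22.5% of all genes, and none of the 23 transcripts had an adjusted p under 0.05 there. BHD, the folliculin gene, had 82.5 at day 12 and 77.2 at day 2. The 3 with the lower sum were RagA-B, at -0.05, and Tor and raptor, the kinase and its partner in TORC1, at -0.44 and -0.43 on the log2 scale. By the most abundant transcript, p before adjustment was 0.327 for Tor and 0.997 for raptor by the authors' deposited table. In the list of cargo receptors and mitophagy 4 of 6 genes were listed, 1 higher and 3 lower, beside 58.5% higher among all genes. The list's median was -0.31 by sums and -0.092 by most abundant transcripts. None of its 10 transcripts had an adjusted p under 0.05 in the authors' deposited table. Its receptor ref(2)P, which binds both Atg8 and ubiquitinated cargo and is itself degraded by autophagy, summed to 262 at day 12 and 236 at day 2. park, the ubiquitin ligase Parkin, had 2.93 at day 12 and 8.59 at day 2, with p = 0.0030 before and 0.129 after adjustment by the authors' deposited table. By the most abundant transcript, park alone of the 4 had p under 0.05 before adjustment, beside 22.5% of all genes by the authors' deposited table. Pink1, the kinase upstream of Parkin, had a sum of 17.4 at day 12 and 19.7 at day 2. Its log2 ratio was -0.18 by sums and 0.49 by the most abundant transcript.

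**Figure D4:**
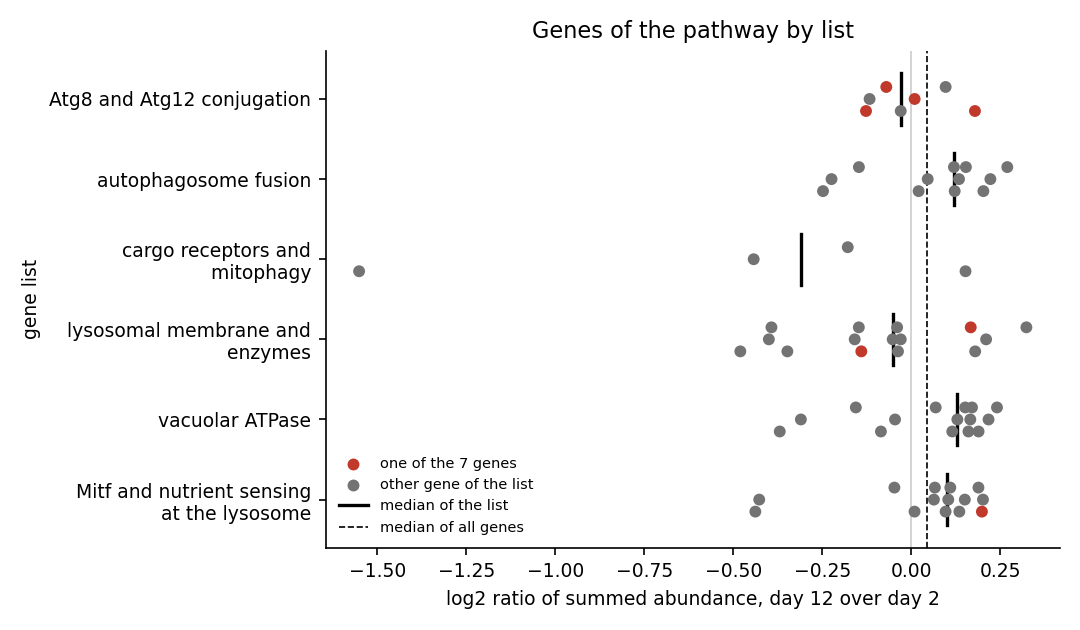
Log2 ratio of summed abundance, day 12 over day 2, for the listed genes of 6 pathway lists, with each list's median as a black bar and the median of all genes, 0.04, as a dashed line. The 7 genes are red where a list holds them; the vacuolar ATPase list has a median of 0.13 and the list of lysosomal membrane proteins and enzymes one of -0.05, and points of both lie on either side of 0.

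Transcript length went along with the difference between days across the genes with an annotated length. Genes whose most abundant transcript has none, cathD among them, were left out. By the annotated length of the most abundant transcript, the median log2 ratio was 0.08 for 1050 genes under 1000 nt, 0.07 for 1931 genes from 1000 to 2000 nt, 0.02 for 1629 genes from 2000 to 4000 nt and -0.11 for 631 genes of 4000 nt or more. From the longest to the shortest, Mitf had 0.20 at 3009 nt, Atg4a -0.07 at 2076 nt and Lamp1 0.17 at 1583 nt. Atg5 had 0.18 at 1418 nt, Atg3 -0.13 at 1221 nt and Atg12 0.01 at 469 nt. Of the vacuolar ATPase genes, 7 of 8 under 2000 nt had the higher sum at day 12, and 3 of 7 of 2000 nt or more. Of the lysosomal membrane and enzyme genes with a length, 2 of 7 and 2 of 6 did. The part of length in these values was not tested.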

How the data were processed

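Linear RNA of stage 14 follicles was measured in 3 libraries per day. The submitters' processing notes name build dm6 and the tools HISAT2, StringTie, STAR and DESeq2, and the sources used here give no versions, roles or test. The authors deposited 1 signal value per transcript and day, a mean abundance whose unit, FPKM or TPM, is not stated. Per the file headers it joins 3 libraries, and every value times 3 comes out whole at 6 decimals. Benjamini-Hochberg adjustment of the deposited p-value over all 10162 transcripts gave back the authors' adjusted p-value. Single libraries were not analysed here. No listed transcript had its higher mean below 0.683, and all 9 transcripts of the 7 genes lay above that.

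Transcript values were summed per gene and day and the log2 ratio of the sums taken without a pseudocount (Python 3.11.15, pandas 2.3.3). Sums and adjustment were tested on simulated data. The call threshold was an adjusted p under 0.05. The test planned for library values could not be used. The members and lists were chosen with earlier results of these data known. Named genes were the members, Atg8a and overlapping genes. From each list, genes at an unadjusted p under 0.05 by the most abundant transcript were also named, and the pair with the highest mean. Atg7, Atg16, Tor, raptor, RagA-B, lt and car were added after their values were seen. Coordinates and lengths are from Ensembl release 115 of BDGP6, which has dm6 coordinates; 7468 of 7490 annotated transcripts were found. List symbols were matched by FlyBase identifier; Tpcn, Asah1, ASM, Clc-b and FNIP had none. The circRNA table, which names no host gene, was not used.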

Additional observations from a re-analysis of the deposited data

How the results depend on the processing

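The alternatives were the most abundant transcript, annotated transcripts only, equal totals per day, centring on the median gene, log2(value + 1), a mean of at least 1, and other thresholds. Mitf, Atg5 and Lamp1 stayed higher and Atg3, Atg4a and cathD lower at day 12 under each alternative run for them. Much of this was fixed in advance. Atg3, Atg4a, Atg5, Atg12 and Lamp1 have a single listed transcript, an annotated one, so choosing transcripts cannot change their values. No transcript of the 7 genes has a mean under 1, and log2(value + 1) cannot change a sign. Equal totals and centring take the same 0.013 and 0.043 from every gene. Atg12, and with it the median of the 7 genes, took the other sign with equal totals, at -0.0034, and on centring, at -0.034. With annotated transcripts only, cathD was at -1.99. The cargo receptor and mitophagy list had a median of -0.092 by most abundant transcripts, where Pink1 changed sign. The number of genes with a called transcript was 0, where 0.177% of all transcripts were called. It was 0 at an adjusted p under 0.1 too, against 1.19% of all transcripts. At an unadjusted p under 0.05 it was 4 by any listed transcript, with cathD only through the low cathD-RA. The share of all genes on that basis was not counted. By the most abundant transcript Mitf, Lamp1 and Atg4a passed, beside 22.5% of all genes by the authors' deposited table. A log2 value was counted as moved beyond 0.1, since no spread over libraries is known. Leaving out replicates was not run, as each day has 1 mean. No paired analysis was possible because the columns hold means of 3 libraries. Depth is unknown, so differences of this size may lie within library error.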
